A study of Homo sapiens with 4 samples.

Results

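RNA-seq of cells labelled Huh-7, a human hepatoma line, was compared between a library labelled sh-WDR4-2, a short hairpin RNA directed at WDR4, and a library labelled sh-NC, the scrambled control hairpin, both taken at 48 h. The comparison covers the genes that reached a mean of 10 CPM (counts scaled to a common library size) over these 2 libraries, which are 9558 of the 19225 entries of the table. The series holds 4 libraries, 1 per group, and the other pair is HCC-LM3, a second hepatocellular carcinoma (HCC) line, with the same hairpins. Per the study's methods the hairpins were carried by lentivirus into stably transduced cells, whereas a treatment label of the library labelled sh-WDR4-2 names an siRNA transfection and the extraction label of both Huh-7 libraries names retinas. With 1 library a group there is no replicate error and no test. Each log2 fold change (sh-WDR4-2 over sh-NC) is given with a 95% counting interval, which covers the sampling of reads and not the variation between cultures, and "higher" or "lower" below describes these 2 libraries. As they are bulk libraries, fewer cells of a kind and less RNA per cell cannot be told apart.

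WDR4 is a WD-repeat protein that partners METTL1, the methyltransferase that places N7-methylguanosine (m7G) on a subset of tRNAs. m7G in the variable loop of these tRNAs is known to protect them from decay and to favour translation of mRNAs rich in the matching codons. ENDOG is a mitochondrial endonuclease, and the yeast relative of HGH1 assists the folding of elongation factor 2.

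The labels were checked before any comparison. WDR4 (GRCh38 chr21:42843094-42879568, minus strand) had 990 counts under the label sh-WDR4-2 and 1077 in the library labelled sh-NC (27.1 and 27.4 CPM). Its log2 fold change was −0.02 (−0.15 to 0.11), so the targeted transcript was at about the same level in both. In HCC-LM3, WDR4 had 1009 and 1604 counts, for a log2 fold change of −0.22 (−0.34 to −0.11). The hepatoma markers went against the label Huh-7. ALB (serum albumin), TTR, SERPINA1, TF and GPC3 had 0 counts in both libraries, which allows up to 0.0821 CPM for the library labelled sh-WDR4-2 and 0.0764 for that labelled sh-NC at a limit of 3 counts. AFP had 2 and 0 counts and FGB had 2 and 2. APOB and APOA1 stood in the places of other symbols in the table, and the entries that the order of the table assigns to them had 0 and 0 counts and 2 and 0 counts. HNF4A, a hepatocyte nuclear receptor, was the 1 of the 10 markers above 1 CPM, with 1980 and 2033 counts. The 10 markers summed to 54.3 and 51.9 CPM. All 7 retina markers were under 1 CPM, and they summed to 12 counts under the label sh-WDR4-2 and 30 in the library labelled sh-NC. Of the 4 blood-cell markers PTPRC, CD3E and LYZ had 0 counts in both, and the macrophage marker CD68 had 683 and 955, so that this list summed to 18.7 and 24.3 CPM. The 4 endothelial markers summed to 3.17 and 3.03 CPM. Among fibroblast genes COL1A1 had 4039 and 4239 counts while COL1A2 had 0 in both. The epithelial keratin KRT8 had 56460 and 54024 counts. The same markers in the HCC-LM3 libraries were also low, with 0 counts of ALB and TTR in both, 6 and 7 of SERPINA1 and 4 and 8 of HNF4A. Both pairs are called by their labels below, without a statement on which line they are.

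Few genes differed by much. The libraries held 36584264 counts for the label sh-WDR4-2 and 39217678 for sh-NC. Over the 9558 genes the log2 fold change had a standard deviation of 0.12, and the first and 99th percentiles lay at −0.28 and 0.26. In HCC-LM3 the same percentiles over 9953 genes were −0.35 and 0.49. Past 1.3-fold, 25 genes were higher (0.262% of all 9558) and 29 were lower (0.303%). Past 2-fold there was 1 gene, CD99 (0.0105%), so 53 of the 54 lay between 1.3-fold and 2-fold. In HCC-LM3, 187 of 9953 genes were higher (1.88%) and 67 lower (0.673%) past 1.3-fold. The 54 genes were mostly of low level. Of the 1586 genes at 10 to 20 CPM, 36 (2.27%) were past 1.3-fold, against 15 of 3090 (0.485%) at 20 to 50 CPM, 3 of 2382 at 50 to 100 CPM, 0 of 1505 at 100 to 200 CPM and 0 of 995 above, while the median half-width of the counting interval fell from 0.17 at 10 to 20 CPM to 0.04 above 200 CPM. The counting interval excluded 0 in all 54, which follows from the floor and the threshold, since the interval at 10 CPM is narrower than that. In 12 of them the whole interval lay past 1.3-fold. At the floor of 10 CPM, NUDT13 (429 and 325 counts) and ZSCAN9 (331 and 430) lay just inside, and WTIP (394 and 361) and RWDD4 (336 and 423) just outside.

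**Figure D1:**
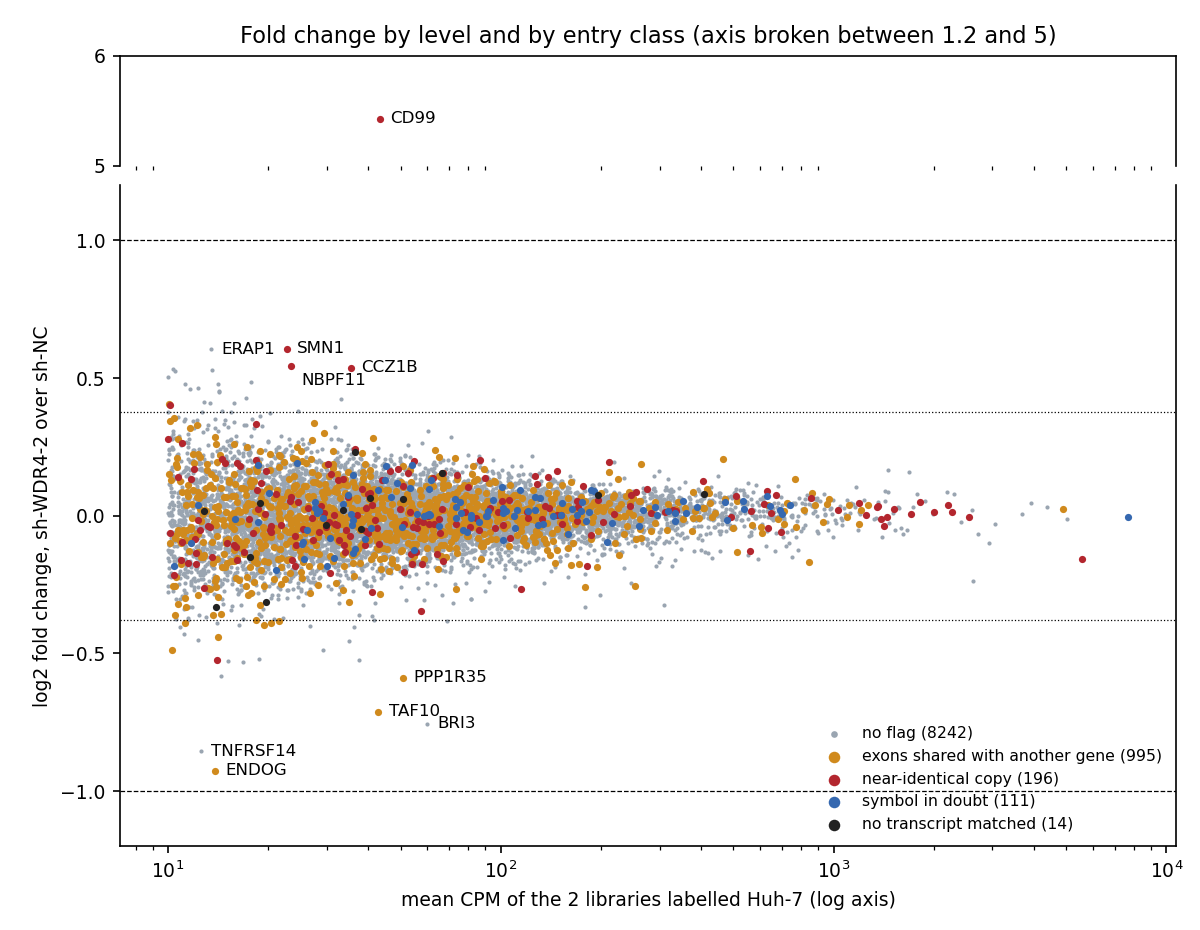
Log2 fold change of the library labelled sh-WDR4-2 over the library labelled sh-NC (y axis, broken between 1.2 and 5) against the mean CPM of both (x axis, log scale) for the 9558 genes, coloured by what is known of the entry; dotted lines mark 1.3-fold and dashed lines 2-fold. CD99 lies alone at 5.43, ENDOG is lowest at −0.93, and most points past the dotted lines are below 20 CPM.

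HGH1 and METTL1 lay below the floor and are described apart. HGH1 had 313 counts (8.56 CPM) under the label sh-WDR4-2 and 152 (3.87 CPM) in the library labelled sh-NC, a log2 fold change of 1.14 (0.86 to 1.43). In HCC-LM3 it had 156 and 168 counts, for a log2 fold change of 0.34 (0.01 to 0.66). For METTL1 304 counts (8.32 CPM) stood against 402 (10.2 CPM), a log2 difference of −0.30 (−0.52 to −0.08), and −0.30 (−0.47 to −0.12) in HCC-LM3. HGH1 was thus higher and METTL1 lower in both cell lines. In the libraries labelled Huh-7, 492 of 2359 genes (20.9%) at 1 to 10 CPM were past 1.3-fold. METTL1 was inside 1.3-fold in both lines and stood at 16.3 CPM in HCC-LM3. The other m7G writers were close to 0. RNMT, the mRNA cap methyltransferase, had 4049 and 4367 counts (−0.01), TRMT112, the shared activator of several methyltransferases, had 2688 and 2867 (0.01), and WBSCR22, the 18S rRNA methyltransferase also called BUD23, had 3720 and 3952 (0.01).

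Genes that share sequence with another gene were set apart first, because reads from near-identical copies can be placed on either. An entry was put in this class when at least 20% of the 75-base windows of its transcripts occurred in another gene. Of the 201 such members, 6 (2.99%) were past 1.3-fold: CD99, SMN1, NBPF11, CCZ1B and FAM72B higher, and POLR2J3 lower. Of the 8242 members with no flag, 37 (0.449%) were. SMN1 and SMN2, which both encode the survival motor neuron protein needed to assemble spliceosomal particles, show how little separates such copies. Over their 882 coding bases the transcripts of GRCh38 differ at 1 base, and over the 1446 coding bases of CCZ1 and CCZ1B, subunits of the activator of the endosomal GTPase RAB7, at 2 bases. In the coding part a read has to cover a differing base to tell the copies apart. CCZ1 and CCZ1B differ at a further base that is not printed. The exon stretch around 1 such base is printed from GENCODE release 29 for each copy, with the differing base in capitals:
SMN1 (chr5:70951941-70951976, plus strand, exon 8 of 9): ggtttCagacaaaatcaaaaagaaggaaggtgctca
SMN2 (chr5:70076521-70076556, plus strand, exon 8 of 9): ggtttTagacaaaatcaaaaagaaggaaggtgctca
CCZ1 (chr7:5919934-5919966, plus strand, exon 12 of 15): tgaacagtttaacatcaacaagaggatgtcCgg
CCZ1B (chr7:6804938-6804970, minus strand, exon 12 of 15): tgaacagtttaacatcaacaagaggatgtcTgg

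The copies of a family differed in direction or size. SMN1 had 1003 counts under the label sh-WDR4-2 and 707 in the library labelled sh-NC, a log2 fold change of 0.61 (0.47 to 0.75), while SMN2 had a log2 fold change of −0.21. Summed, the pair had 1357 and 1148 counts, and the log2 fold change was 0.34 (0.23 to 0.46), inside 1.3-fold. CCZ1B had 1534 and 1136 counts (0.54, 0.42 to 0.65) and CCZ1 had 1147 and 1258 (−0.03). Their sum gave 0.27 (0.19 to 0.35). The NOMO genes, near-identical endoplasmic reticulum membrane proteins, split in the same manner. NOMO3, below the floor at 4.27 CPM, had 238 and 80 counts (1.68), NOMO1 had 3832 and 4943 (−0.27) and NOMO2 had 1856 and 2252 (−0.18), and the 3 together stood at −0.19 (−0.24 to −0.14). Within the FAM72 family FAM72B had 423 and 344 counts (0.40) and FAM72A had 193 and 272 (−0.39), and the sum of 4 entries was at 0.14 (0.00 to 0.27). Within the NBPF family NBPF11 had 1016 and 749 counts (0.54), and the sum of 10 entries was at 0.02 (−0.02 to 0.07). POLR2J3, a copy of an RNA polymerase II subunit gene, had 421 and 650 counts (−0.52), and the sum of POLR2J, POLR2J2 and POLR2J3 was at −0.22 (−0.31 to −0.12). Of the 5 families with a member of at least 10 CPM past 1.3-fold in the libraries labelled Huh-7, 0 remained past it there when summed. A sum lies between its lowest and highest copy by construction, so this count does not show how reads were placed. The SMN pair stayed higher, at 0.34, and its sum in HCC-LM3 was past 1.3-fold, at 0.51. The other 4 sums in HCC-LM3 were −0.03 (CCZ1), 0.10 (FAM72), −0.11 (NBPF) and −0.26 (POLR2J).

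**Figure D2:**
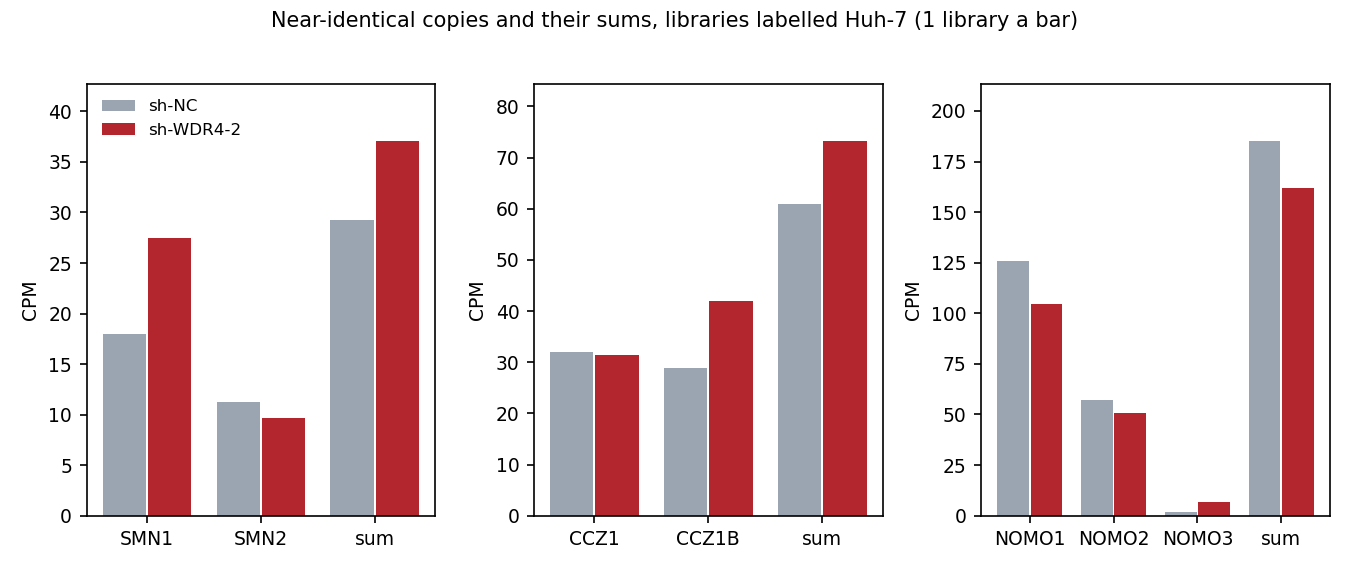
CPM of SMN1 and SMN2, of CCZ1 and CCZ1B, and of NOMO1, NOMO2 and NOMO3, each with its sum (y axes start at 0), in the library labelled sh-NC (grey) and the library labelled sh-WDR4-2 (red). SMN1, CCZ1B and NOMO3 are higher under sh-WDR4-2 while their copies are lower or level. The ratios of the sums are 0.34, 0.27 and −0.19 on the log2 scale. By construction each lies between the lowest and the highest ratio of its copies.

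CD99, a surface glycoprotein of the pseudoautosomal region, had 3091 counts (84.5 CPM) under the label sh-WDR4-2 and 77 (1.96 CPM) in the library labelled sh-NC, a log2 fold change of 5.43 (5.10 to 5.77). In HCC-LM3 it had 3111 and 2904 counts, for a log2 fold change of 0.54 (0.47 to 0.62). This region is present on X and Y with the same sequence, and in GENCODE all 75-base windows of CD99 occur in its Y copy. Of the 10 entries with a pseudoautosomal copy at 1 CPM or more, 8 were past 1.3-fold, 4 higher and 4 lower, where 4.58% of all 11917 genes at that level were. Most of these entries were low, and 7 of the 8 at 1 to 10 CPM were past 1.3-fold, against 20.9% of all genes in that range. PPP2R3B, a phosphatase regulatory subunit, had 26 and 367 counts (−3.72, −4.35 to −3.14) and was 1.23 in HCC-LM3. DHRSX, a dehydrogenase, had 114 and 38 counts (1.69), and the transposase-derived factor ZBED1 had 215 and 420 (−0.86). SLC25A6, the ADP/ATP carrier and the other member of the 9558 in this class, had 470 and 560 counts (−0.15, −0.33 to 0.03). How the authors' counting dealt with reads that fit X and Y is not given in the sources used here, so these values are reported as uncertain.

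Overlapping genes were set apart next, because it is not stated whether strand was used in counting. Of the 1027 members with at least 20% of their exon bases inside another gene, 12 (1.17%) were past 1.3-fold, 11 of them lower. ENDOG (chr9:128818474-128822677, plus strand) led them with 349 counts (9.55 CPM) under the label sh-WDR4-2 and 712 (18.1 CPM) in the library labelled sh-NC, a log2 fold change of −0.93 (−1.12 to −0.74). In HCC-LM3 it had 607 and 627 counts and was higher, at 0.40 (0.23 to 0.56). SPOUT1, an RNA methyltransferase gene on the other strand, covers 39.2% of the exon bases of ENDOG and had 1374 and 1491 counts (−0.02, −0.12 to 0.09). TAF10, a subunit of TFIID and SAGA, had 1190 and 2091 counts (−0.71, −0.82 to −0.61), and a same-strand gene covers 52.7% of its exons. PPP1R35, a centriole protein, had 1484 and 2396 counts (−0.59, −0.68 to −0.50). In HCC-LM3 these 2 were at 0.15 and −0.03. The others were lower by less. The antiviral gene C19orf66 had 313 and 471 counts (−0.49), the Mediator subunit MED11 had 356 and 500 (−0.39), and the death-effector gene DEDD had 583 and 814 (−0.38). CD68, a lysosomal glycoprotein used as a macrophage marker, had 683 and 955 counts (−0.38, −0.53 to −0.24), with its exons wholly inside a same-strand readthrough annotation, while PTPRC and LYZ were at 0. TMEM254 (−0.44), the adaptor SHB (−0.40), SFT2D3 (−0.39) and POLR2J3, which is also a near-identical copy, completed the lower ones. C8orf58 was the one that was higher, with 420 and 340 counts (0.41).

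Misplaced symbols did not enter the 54 genes. The table keeps the order of a hash dictionary, in which each symbol has a fixed place, and 204 of its 19225 symbols stood where they do not belong, besides 27 turned into dates. Among the 9558 members 111 symbols were in doubt, 84 of them in exchanges between 2 entries. Of these 84, the length in the table fitted the symbol given by the order in 68 and the printed symbol in 12, with 11 that fitted both. The log2 fold changes of the 111 ran from −0.20 to 0.19, and 0 were past 1.3-fold. The lowest was the entry printed as the date 9-Mar, with 719 and 884 counts, and the highest was ORC4, with 952 and 894. The entry with the most counts was printed as ARMC12, whose place is that of EEF1A1, the translation elongation factor, with 279845 and 301635 counts (−0.01). Cell cycle genes were read at the places that the order gives them. The entry in the place of CCNB1, cyclin B1, is printed as BHMG1 and had 7028 and 7073 counts (0.09, 0.05 to 0.14). The entry in the place of CDK1 is printed as ARHGAP6 and had 6059 and 6386 counts (0.03, −0.02 to 0.08), and that of PLK1, printed as BOLA2B, had 4001 and 4302 (0.00, −0.06 to 0.06). Those of CDK7 and CDC25A were at 0.13 (0.03 to 0.23) and 0.10 (0.01 to 0.19), and that of PKMYT1 was at 0.01. The same entries in HCC-LM3 were at −0.07 (CCNB1), −0.001 (CDK1), −0.14 (PLK1), −0.03 (CDK7), 0.08 (CDC25A) and −0.16 (PKMYT1). Under their own printed symbols CCNB1 had 2 and 1 counts, CDK1 had 0 and 21, and PLK1 had 0 and 6.

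The remaining 37 members past 1.3-fold carried none of these flags. Of them 18 were lower and 19 were higher. The largest falls were in TNFRSF14, a receptor of the TNF superfamily, and BRI3, a small lysosomal membrane protein. TNFRSF14 (chr1:2555639-2565382, plus strand) had 327 counts (8.94 CPM) under the label sh-WDR4-2 and 635 (16.2 CPM) in the library labelled sh-NC, a log2 fold change of −0.86 (−1.05 to −0.66). In HCC-LM3 it stood at 2.81 CPM and −0.77 (−1.22 to −0.33). BRI3 (chr7:98252379-98310441, plus strand) had 1637 counts (44.8 CPM) and 2966 (75.6 CPM), a log2 fold change of −0.76 (−0.84 to −0.67), and 0.05 (−0.06 to 0.16) in HCC-LM3. The whole interval of both genes lay past 1.3-fold.

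HEMK1, a mitochondrial release factor methyltransferase, had 422 and 678 counts (−0.58, −0.76 to −0.40). ECI1, an isomerase of mitochondrial fatty acid oxidation, had 2197 and 3072 (−0.38, −0.46 to −0.30), and the mitochondrial protein FAM210B had 454 and 702 (−0.53, −0.70 to −0.35). CHPT1, which makes phosphatidylcholine, had 1082 and 1590 counts (−0.45, −0.57 to −0.34), and PIGX, of the first mannose transfer onto glycosylphosphatidylinositol anchors, had 891 and 1340 (−0.49, −0.61 to −0.36). In HCC-LM3 the 5 lay between 0.03 and 0.13 on the log2 scale.

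HES1, a transcriptional repressor induced by Notch, had 1141 and 1620 counts (−0.40, −0.51 to −0.29). EID2, an inhibitor of differentiation, had 503 and 780 (−0.53), the forkhead factor FOXD1 had 349 and 504 (−0.43, −0.63 to −0.23), and the zinc finger gene ZNF174 had 515 and 728 (−0.40). The secreted NENF had 1126 and 1737 counts (−0.52, −0.63 to −0.41) and METRN, which promotes glial differentiation, had 843 and 1195 (−0.40). P4HTM, a membrane prolyl hydroxylase, had 1325 and 1851 (−0.38). TMC5 (−0.52), TUSC1 (−0.45), CCDC92 (−0.40) and GINM1 (−0.39) completed the 18 lower genes.

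The higher genes are given next. ERAP1 (chr5:96760810-96808100, minus strand), the endoplasmic reticulum aminopeptidase that trims peptides for MHC class I, had 596 counts (16.3 CPM) and 421 (10.7 CPM), a log2 fold change of 0.60 (0.42 to 0.79). PSME2, a subunit of the PA28 proteasome activator, had 1391 and 1114 counts (0.42, 0.31 to 0.54), and its partner PSME1 had 2382 and 2328 (0.14, 0.05 to 0.22). PSMB8 and PSMB9, interferon-inducible proteasome subunits, had intervals that included 0. PSMB8 had 2028 and 2301 counts (−0.08, −0.17 to 0.01) and PSMB9 had 670 and 782 (−0.12, −0.27 to 0.03). The intervals of TAP1 (−0.04, −0.10 to 0.03) and TAP2 (−0.04, −0.11 to 0.03) included 0 too. In HCC-LM3 ERAP1 was at −0.02 and PSME2 at 0.03.

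EXOG, a mitochondrial nuclease related to ENDOG, had 557 and 450 counts (0.41, 0.23 to 0.59). MTERF4, needed for mitochondrial ribosome assembly, had 520 and 405 (0.46, 0.27 to 0.65), and DNAJC15, a J protein of the inner mitochondrial membrane, had 602 and 464 (0.48, 0.30 to 0.66). DNMT3B, a de novo DNA methyltransferase, had 721 and 576 counts (0.43, 0.27 to 0.59), and its relative DNMT3A was lower, at 1172 and 1473 (−0.23, −0.34 to −0.12). HIST1H2AC, a histone gene whose mature mRNA usually lacks a poly(A) tail, had 452 and 337 counts (0.53), and the synaptonemal complex gene SYCP2 had 1017 and 839 (0.38). LFNG, the glycosyltransferase that modifies Notch receptors, had 758 and 581 counts (0.49, 0.33 to 0.64), and 116 and 99 in HCC-LM3 (0.67, 0.27 to 1.08) at 3.17 CPM.

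COMMD10, of an endosomal sorting complex, had 585 and 435 counts (0.53), the orphan receptor GPRC5B had 448 and 332 (0.53), the autophagy protease ATG4C had 601 and 471 (0.45), and the myosin MYO1G had 660 and 533 (0.41). NUDT13 (0.50), SYPL2 (0.48), GLT8D2 (0.46), CXorf23 (0.45), CIR1 (0.41) and ZNF597 (0.38) completed the 19 higher genes. The 19 higher genes had a median GC content of 44.6% and the 18 lower genes of 54.1%, against 48.1% over all 8242 genes with no flag, and their median levels were 13.5 and 17.8 CPM against 52.1 CPM.

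**Figure D3:**
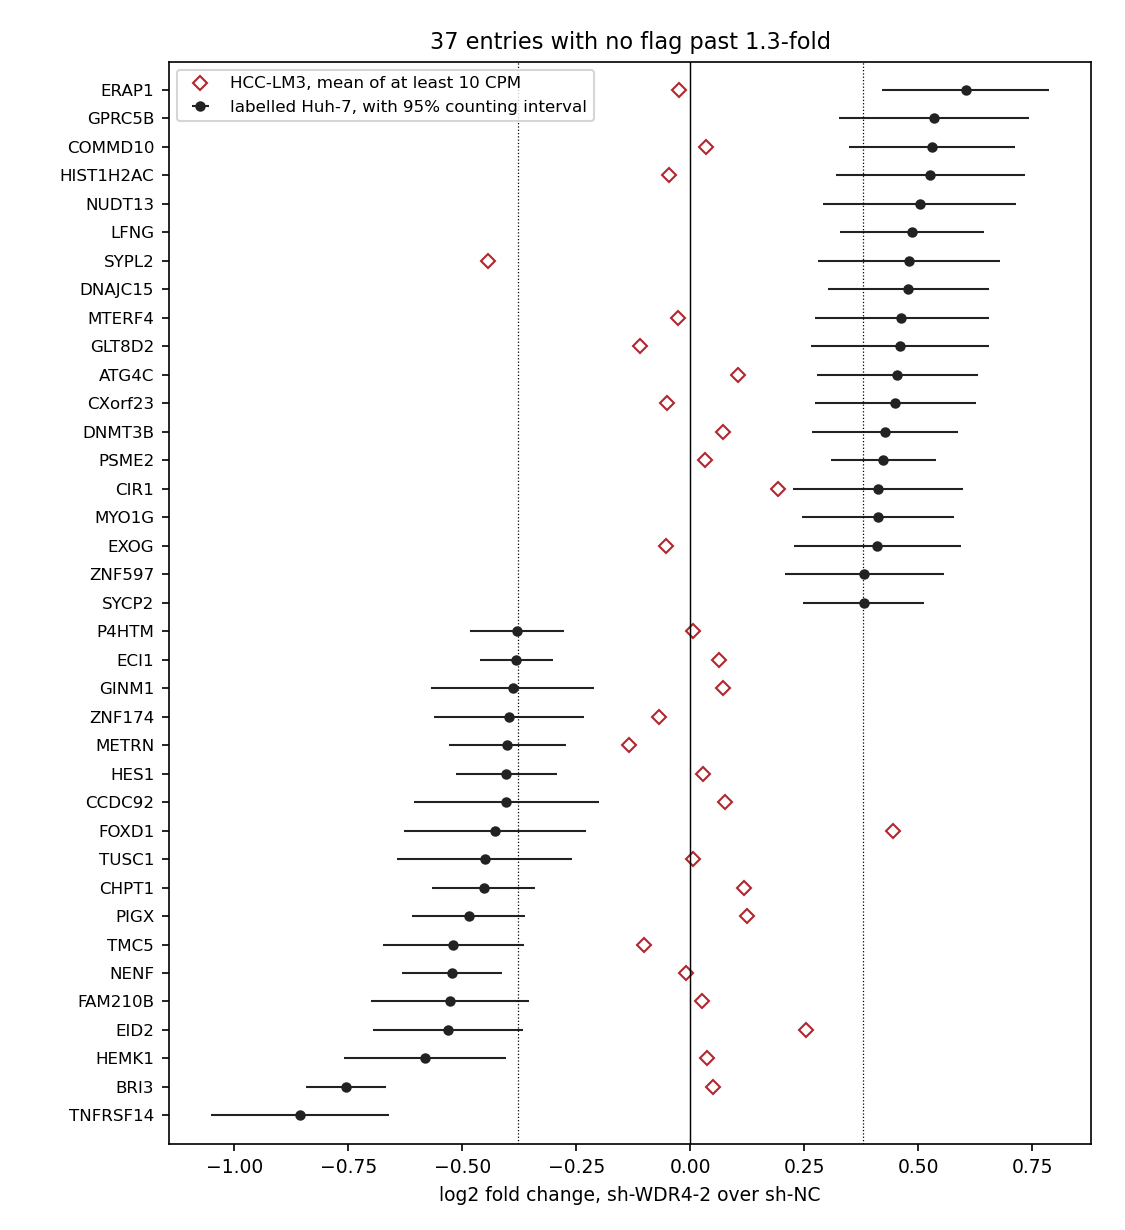
Log2 fold change with 95% counting interval (black points and bars) of the 37 unflagged genes past 1.3-fold in the libraries labelled Huh-7, and the log2 fold change in HCC-LM3 (red diamonds) where the gene reached 10 CPM there; dotted lines mark 1.3-fold. Most diamonds lie close to 0, and SYPL2 and FOXD1 have theirs past 1.3-fold on the other side.

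The 54 genes were then read in HCC-LM3. Of the 44 genes past 1.3-fold that reached 10 CPM in both cell lines, 7 (15.9%) were past 1.3-fold in HCC-LM3 too, against 183 of all 9032 genes measured in both (2.03%). The 9032 genes were not matched to the 44 in level or in entry flags, so the 2 shares are not like for like. Of the 7, 4 went the same way and 3 the opposite way. The 4 were CD99, SMN1 and C8orf58, higher in both, and POLR2J3, lower in both, all of them entries with a near-identical copy or an exon overlap. SMN1 had 852 and 724 counts in HCC-LM3 (0.68, 0.53 to 0.82), C8orf58 had 437 and 340 (0.81, 0.60 to 1.02), and POLR2J3 had 459 and 847 (−0.44, −0.61 to −0.27). Of the 29 unflagged genes at 10 CPM in both lines, 0 were past 1.3-fold the same way. The other 8 unflagged genes were below 10 CPM in HCC-LM3, and of these TNFRSF14 (−0.86 here and −0.77 there) and LFNG (0.49 and 0.67) were past 1.3-fold the same way. They stood at 2.81 and 3.17 CPM in HCC-LM3. At 1 to 10 CPM in the libraries labelled Huh-7, 20.9% of all genes were past 1.3-fold either way. The share at this level in HCC-LM3, or past 1.3-fold the same way in both lines, was not counted.

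Shifts below 1.3-fold were read by pathway. Of the 86 gene lists with at least 5 measured members, the medians of the log2 fold change ran from −0.11 to 0.08, against 0.00 over all 9558 genes. Members are also counted by whether the counting interval lay above 0, as in 16.4% of all genes, or below 0, as in 15.8%, and genes with many counts reach this more readily. Lists use the symbols as printed, so a few members are misplaced entries and some genes that belong to a list are left out. The highest median was that of the chaperonin and prefoldin genes, which fold actin and tubulin. Of 16, 15 were higher and the median was 0.08, with 8 intervals above 0 and 0 below. TCP1 had 8989 and 8772 counts (0.14, 0.09 to 0.18), CCT3 had 19290 and 19346 (0.10), and PFDN1 had 1289 and 1248 (0.15). The proteasome, the protease of ubiquitylated proteins, had 38 of 47 genes higher, a median of 0.06, 19 intervals above 0 and 0 below, and PSME2 was its 1 member past 1.3-fold. PSMB6 had 2859 and 2746 counts (0.16, 0.08 to 0.24) and PSMC6 had 2581 and 2488 (0.16). The medians of both lists in HCC-LM3 were −0.01 and −0.03.

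Cholesterol synthesis genes, which SREBP2 switches on together, had 22 of 26 higher at a median of 0.05, with 14 intervals above 0 and 2 below. HMGCS1, the synthase that opens the pathway, had 18232 and 16945 counts (0.21, 0.18 to 0.24), and MSMO1 had 4875 and 4506 (0.22, 0.16 to 0.27). In HCC-LM3 the median was −0.09. The subunits of RNA polymerases I, II and III had 23 of 28 higher at a median of 0.05, but 5 intervals above 0 and 2 below, one of them that of POLR2J3. Glutathione S-transferases had 9 of 10 higher (median 0.05), led by GSTM3 with 7516 and 7451 counts (0.11). Keratin and tubulin genes also had medians above 0, at 0.05 over 6 and 0.04 over 15, with KRT8 at 0.17 (0.15 to 0.18).

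Lysosomal genes lay on the other side. Of the 19 cathepsin and lysosomal membrane genes 18 were lower, at a median of −0.10, with 13 intervals below 0 and 0 above. LAMP1, the main lysosomal membrane glycoprotein, had 8248 counts under the label sh-WDR4-2 and 10494 in the library labelled sh-NC (−0.25, −0.29 to −0.20). The sialidase NEU1 had 896 and 1137 (−0.24), the protease cathepsin D (CTSD) had 6648 and 8119 (−0.19, −0.23 to −0.14), and NPC2, a carrier of lysosomal cholesterol, had 3529 and 4290 (−0.18). In HCC-LM3 the list had a median of −0.07, with LAMP1 at 0.07 and CTSD at −0.18. The V-type ATPase, which acidifies the same organelle, had a median of 0.00 over 14 genes.

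Complement components had 9 of 10 lower at a median of −0.11, with 5 intervals below 0 and 0 above. C3, the central component, had 15883 and 18618 counts (−0.13, −0.16 to −0.10), C1S had 5480 and 6486 (−0.14) and CFB had 1675 and 2043 (−0.18). With misplaced symbols put back the list had 9 of 9 lower at a median of −0.12. The median moved to −0.03 when genes down to 1 CPM were counted. The hepatocyte transcription factors had 9 of 13 lower at a median of −0.10, with 6 intervals below 0 and 3 above. CEBPB had 5823 and 7856 counts (−0.33, −0.38 to −0.28), NR2F1 had 1879 and 2337 (−0.21) and PPARA had 1766 and 2161 (−0.19), while HNF4A was at 0.06 (−0.03 to 0.15). The MYC and MAX network had 8 of 11 lower (median −0.09), with MYC at 19262 and 22804 counts (−0.14, −0.17 to −0.11) and MAX at 1592 and 1975 (−0.21).

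Immediate early genes, which growth signals induce within minutes to hours, had 28 of 35 lower at a median of −0.07, with 14 intervals below 0 and 3 above. EGR1 had 623 and 845 counts (−0.34, −0.49 to −0.19), SPRY2, a feedback inhibitor of receptor tyrosine kinase signalling, had 475 and 637 (−0.32), and DUSP5, an ERK phosphatase, had 2116 and 2706 (−0.25). JUN went the other way with 2447 and 2123 counts (0.31, 0.22 to 0.39), and FOS was at −0.06 (−0.15 to 0.03). In HCC-LM3 the list had a median of 0.08, with EGR1 at 0.81 and DUSP5 at 0.61. The dual specificity phosphatases, which share DUSP5 with that list, had 12 of 14 lower (median −0.05). Interferon-stimulated genes had 14 of 23 lower (median −0.07) with 6 intervals below 0 and 3 above, and PARP12 had 2432 and 2970 counts (−0.19). Among those above 0 were SAMD9L, with 932 and 877 counts (0.19, 0.06 to 0.32), and IRF7, the interferon regulatory factor, with 1127 and 1090 (0.15, 0.03 to 0.27).

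**Figure D4:**
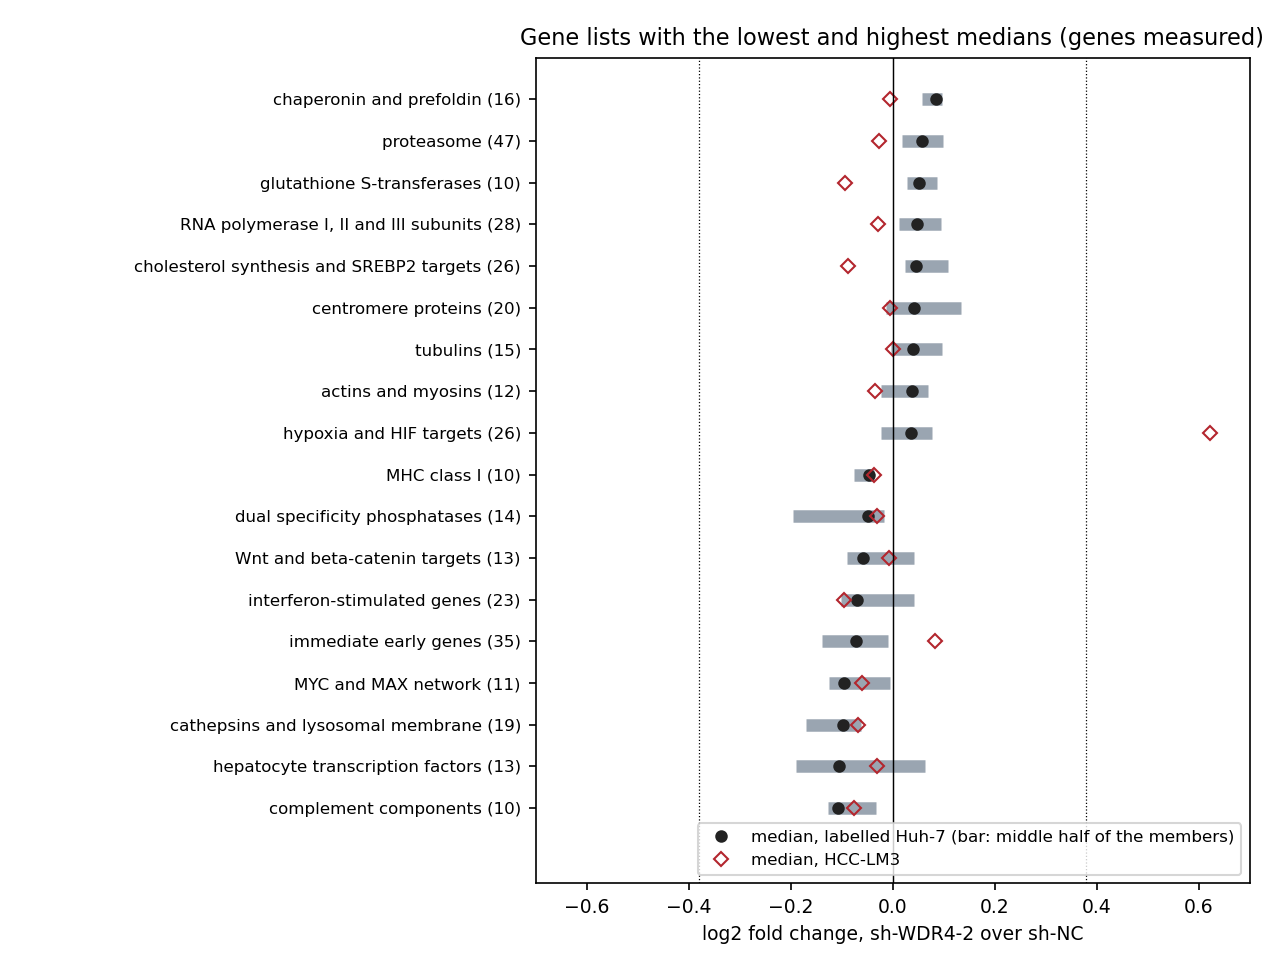
Median log2 fold change of the 9 gene lists with the lowest and the 9 with the highest medians among lists with at least 10 measured genes (black points, with the interquartile range of the members as grey bars and the number measured in brackets), and the median of the same lists in HCC-LM3 (red diamonds). The black medians run from −0.11 to 0.08, all inside the dotted 1.3-fold lines, and the diamond of the hypoxia list lies at 0.62.

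The lists closest to the study's question stayed near 0. Mitotic and G2/M genes had a median of 0.02 over 53 genes with 36 higher, 17 intervals above 0, 3 below and 0 past 1.3-fold. Their most different member was WEE1, the inhibitory kinase of CDK1, with 3807 and 4659 counts (−0.19, −0.25 to −0.13). DNA replication and G1/S genes had a median of 0.02 over 56, and cyclins −0.01 over 20. Cytosolic ribosomal protein genes had a median of 0.02 over 81, with 34 intervals above 0 and 15 below. tRNA-modifying enzymes other than the m7G writers had a median of −0.01 over 53, and aminoacyl-tRNA synthetases 0.01 over 39. In these 2 lists TRMT11, of a guanosine methyltransferase, had 638 and 528 counts (0.38, 0.21 to 0.54), MARS2, the mitochondrial methionyl-tRNA synthetase, had 522 and 432 (0.38), and VARS2, the mitochondrial valyl-tRNA synthetase, had 677 and 887 (−0.29). Targets of ATF4 and the integrated stress response had a median of 0.00 over 30, with 15 on each side, and p53 targets −0.01 over 25. With misplaced symbols put back, p53 targets had a median of −0.002 over 28, and mitotic and G2/M genes 0.02 over 59. The entry in the place of CDKN1A is printed as ANGPTL4 and had 2237 and 2397 counts (0.00, −0.08 to 0.09). BAX, a p53 target that permeabilizes mitochondria, had 617 and 769 counts (−0.22, −0.37 to −0.06), and its relative BAK1 had 900 and 816 (0.24, 0.11 to 0.38). Hypoxia and HIF targets had a median of 0.04 over 26, with 16 higher, whereas their median in HCC-LM3 was 0.62. VEGFA was lower here, with 3507 and 4300 counts (−0.19), and stood at 0.58 in HCC-LM3.

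The fold change moved slightly with GC content. From the lowest to the highest decile of GC content, the median log2 fold change went from 0.02 to −0.03, and from 0.04 to −0.08 in HCC-LM3. In the highest decile 8 genes were lower past 1.3-fold and 0 were higher, and in the lowest 0 were lower and 4 higher. With the median of each decile subtracted, 51 genes were past 1.3-fold. The medians of the chaperonin list (0.07), the proteasome (0.05), the lysosomal list (−0.12), complement (−0.09) and the immediate early genes (−0.08) kept their direction, and the part of GC content in single genes was not tested.

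**Figure D5:**
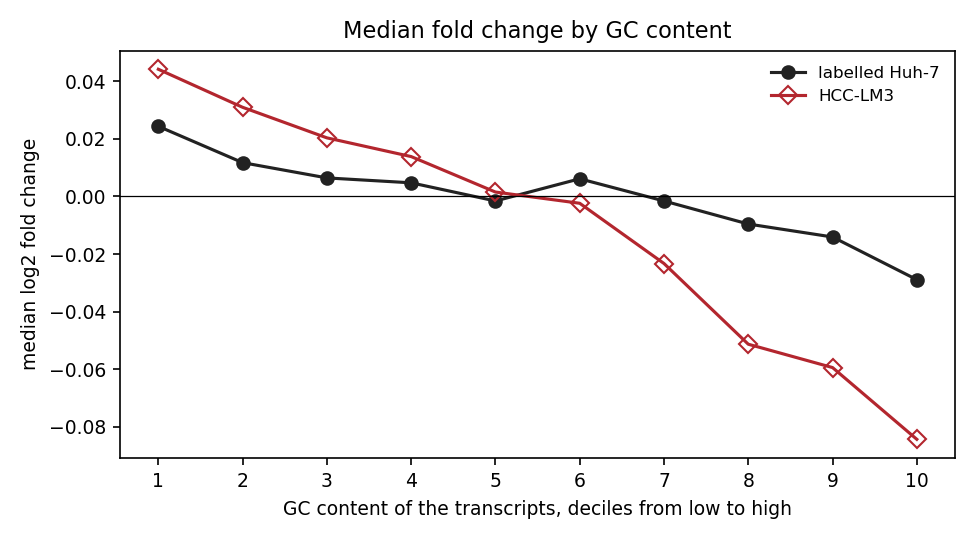
Median log2 fold change (y axis) in deciles of the genes ordered by the GC content of their transcripts (x axis, low to high), for the libraries labelled Huh-7 (black) and HCC-LM3 (red). The black line goes from 0.02 to −0.03 and the red line from 0.04 to −0.08.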

How the data were processed

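Per the labels and the study's methods, RNA was sequenced from 1 library per group. The authors deposited 1 table of raw counts per gene symbol and of FPKM, which equal the count divided by a length and by the library total. Bowtie 0.12.2 and mouse builds (mm8, mm9) are named in the submitters' processing notes, and how reads with several placements or strand were counted is not given in the sources used here. Totals were 36584264 and 39217678 counts in the libraries labelled Huh-7. Counts were scaled by TMM over these 2 libraries (edgeR 4.0.16, R 4.3.3), and a mean of 10 CPM or more was required. Log2 ratios had no pseudocount. The 95% counting intervals are exact binomial intervals (Clopper-Pearson, scipy 1.17.1). They cover counting error only.

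The members, gene lists and the rule for named genes were chosen with earlier results of these data known. Named were the genes of interest (WDR4, METTL1, ENDOG, HGH1 and 6 cell cycle genes), the 15 largest rises and falls without a flag, flagged genes past 1.5-fold, up to 4 members per list whose interval excludes 0, and genes past 1.3-fold in both cell lines. Others, such as all genes past 1.3-fold, were added after their values were seen. Flags were a symbol out of the order of the table, a date or a duplicate, a length that differed between cell lines, near-identical copies and exon overlap (GENCODE release 29, 19069 of 19225 entries matched). The 20% limit for overlap was set after the data were seen. The calculations were tested on simulated data. Alternatives were DESeq2 1.42.0 size factors, library totals, other floors and thresholds, a pseudocount, GC and length adjustment, the ratio of the deposited FPKM, and leaving out flagged entries.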

Additional observations from a re-analysis of the deposited data

Results flagged for a closer look

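In 3 genes the log2 fold change was past 1.3-fold in both cell lines in opposite directions, and with 1 library a group the difference between the lines was not tested. ENDOG was at −0.93 in the libraries labelled Huh-7 and at 0.40 in HCC-LM3. FOXD1 was at −0.43 and 0.45. SYPL2 was at 0.48 and −0.44.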

How the results depend on the processing

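No paired analysis was possible because each group has 1 library, and for the same reason no replicate could be left out. The number of genes past 1.3-fold depended on the floor. The 54 genes at 10 CPM became 135 at 5 CPM, 18 at 20 CPM, 546 at 1 CPM and 2992 with no floor, and past 2-fold the 1 gene became 3 at 5 CPM, 31 at 1 CPM and 1733 with no floor. Without near-identical copies 0 genes were past 2-fold. The stricter rules left 8 genes past 1.5-fold and 12 with the whole counting interval past 1.3-fold. Under the other settings, among them DESeq2 size factors (55 genes), TMM over all 4 libraries (62), a pseudocount of 0.5 CPM (47) and copies summed (49, chosen after seeing the data), the count stayed within 1.5 times. Of 1290 list medians over 86 lists and the alternatives, 3 moved by more than the counting half-width of their members. That is a wide limit for a median: over all members the half-width was 0.09, about the size of the most different medians. In the 20 lists with a median of at least 0.04 in size, 0 changed sign. Of 406 values for 58 genes, 0 left their counting interval. The alternatives use the same counts, and size factors barely differed (sh-WDR4-2 in Huh-7: 0.9993 by TMM, 0.9991 by DESeq2). Little movement was possible there. Depth limits single genes at 10 to 20 CPM to about 0.17 on the log2 scale.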
